A study of Mus musculus with 6 samples.

Results

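The genes described here encode channels and regulators of cardiac pacemaking: the hyperpolarization-activated channels Hcn2 and Hcn4, the calcium channels Cacna1d, Cacna1g and Cacna1h, the transcription factors Tbx3, Shox2 and Isl1, and the connexin Gjc1. They were taken by symbol from the gene tables of heart muscle and are 9 of the 17891 genes listed in at least 1 sample. RNA was sequenced from the myocardium of 6-week-old mice on a C57BL/6 background, in 3 NS-DADm samples and 3 wild type (WT) samples. The NS-DADm genotype is a whole-body knock-in, so the change is not limited to heart muscle cells. Its mutations lie in the deacetylase activating domains (DADs) of corepressors that bind nuclear receptors, of which NCOR, the product of Ncor1, is named here. A DAD is the segment through which such a corepressor binds and activates the histone deacetylase HDAC3. WT mice carry no such mutation. Separate mice are not stated for the samples, and p-values therefore describe the spread between these samples only.

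Pacemaker cells of the sinoatrial node depolarize on their own between beats. HCN channels carry the inward current that hyperpolarization switches on, and T-type and low-threshold L-type calcium channels add to the depolarization that follows. TBX3, SHOX2 and ISL1 hold these cells in their identity, and connexins couple them to their neighbours. In ventricular muscle, which makes up most of the heart, these genes are mostly low, although Hcn2 is known to be expressed there as well.

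Of the 9 genes, 8 were tested and 3 passed the test, all lower in NS-DADm: Hcn2, Cacna1g and Gjc1. Of all 13130 tested genes, 3.2% were called, with 1.41% lower and 1.79% higher. Hcn2 fell 3.36-fold, Cacna1g 1.84-fold and Gjc1 1.36-fold. Hcn4, Cacna1d, Cacna1h, Tbx3 and Shox2 did not pass, and Isl1 had too few counts to be tested. The median log2 fold change of the 8 tested genes was -0.17, with 4 positive and 4 negative, against a median of -0.003 over all tested genes, of which 6473 were positive and 6657 negative. NS-DADm and WT samples were fully separated in 3 of the 8, as they were in 23.4% of all tested genes. All tests across genes were edgeR's quasi-likelihood test on expected counts, with p-values adjusted by the Benjamini-Hochberg method over all tested genes and 0.05 as the threshold. Levels are FPKM (fragments per kilobase, scaled to the size of the library) as deposited.

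**Figure D1:**
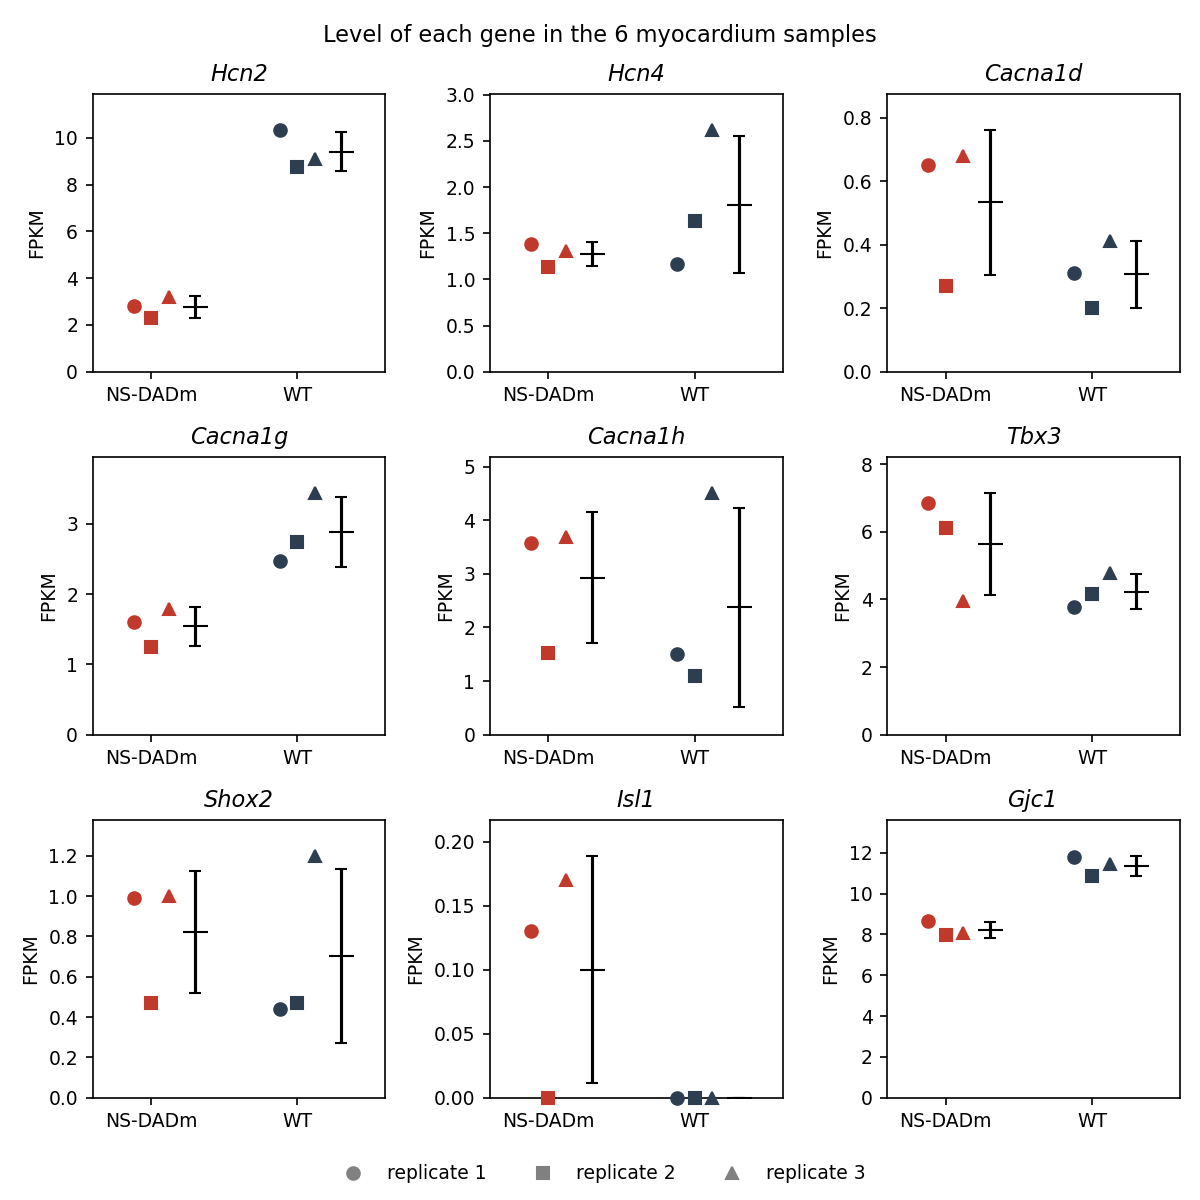
Level in FPKM of each of the 9 genes in the 3 NS-DADm samples and the 3 WT samples, with marker shape for the replicate and bars for the mean ± SD of each group. The NS-DADm samples lie below all WT samples for Hcn2, Cacna1g and Gjc1, and the groups overlap for the other genes.

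Total expected counts were 12262523 to 12758311 in the NS-DADm libraries and 10183792 to 11205221 in the WT libraries, so all NS-DADm libraries were deeper. For a feature of 1 kilobase, 3 counts corresponded to 0.235 to 0.245 FPKM in NS-DADm and 0.268 to 0.295 FPKM in WT. These floors cover counting error only. The tissue label held in all samples: the ventricular light chain Myl2 stood at 15371 to 20066 FPKM in NS-DADm and 16414 to 21253 FPKM in WT. Ncor1 had a level of 23.1, 24.9 and 24.8 FPKM in NS-DADm 1, 2 and 3, against 23.3, 21.6 and 23.7 FPKM in WT 1, 2 and 3 (log2 fold change 0.10, SE 0.06, adjusted p = 0.432, edgeR). A knock-in changes the protein and need not change its RNA, so this level does not check the labels.

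The libraries differed in atrial transcripts within both groups. An atrial score was taken as the mean log2 CPM (counts scaled to the size of the library) of Sln, Myl7 and Myl4, the sarcolipin and light chain genes of atrial muscle. The score was 8.004, 5.22 and 8.71 in NS-DADm 1, 2 and 3 and 4.54, 2.25 and 8.42 in WT 1, 2 and 3. NS-DADm 1, NS-DADm 3 and WT 3 were thus high, and WT 2 was lowest. The 7 atrial markers summed to 3803, 598 and 6634 FPKM in NS-DADm 1, 2 and 3 and to 562, 299 and 4737 FPKM in WT 1, 2 and 3. Bmp10, a growth factor gene of the atria, had levels of 53.9 and 64.8 FPKM in NS-DADm 1 and 3 and 35.8 FPKM in WT 3, and it was listed at 0 in NS-DADm 2, WT 1 and WT 2. The mean score was 7.31 ± 1.84 in NS-DADm and 5.07 ± 3.12 in WT (SD, n = 3 each), a difference of 2.24 (exact two-sided permutation test, p = 0.3, where 0.1 is the smallest p that 3 against 3 can give). None of the 7 markers was called between the groups, though each had a positive log2 fold change. In bulk tissue, fewer cells of a type and less RNA per cell cannot be told apart. The comparison of each tested pacemaker gene is therefore given also with the score as a covariate.

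Hcn2 (gene ID 15166), whose channel opens on hyperpolarization and responds to cyclic AMP, had the largest change among the pacemaker genes tested. Its level was 2.79, 2.28 and 3.20 FPKM in NS-DADm 1, 2 and 3, against 10.3, 8.77 and 9.11 FPKM in WT 1, 2 and 3. The highest NS-DADm sample stood well below the lowest WT sample, and the spread within each group was small. The expected counts behind these levels were 108, 91 and 123 in NS-DADm and 348, 279 and 320 in WT. Hcn2 averaged 2.76 ± 0.461 FPKM in NS-DADm and 9.41 ± 0.826 FPKM in WT (SD, n = 3 each). Its log2 fold change was -1.75 (SE 0.12, adjusted p = 7.37e-05, edgeR). With the atrial score as a covariate the log2 fold change was -1.79 (SE 0.14, adjusted p = 4.53e-05), in a fit that called 2.95% of all genes. The call held in each of the 15 alternatives run, with adjusted p up to 0.00181 and a log2 fold change from -1.86 to -1.47.

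Hcn4 (gene ID 330953) encodes the main HCN channel of the sinoatrial node. Its level was 1.38, 1.13 and 1.31 FPKM in NS-DADm 1, 2 and 3, against 1.17, 1.63 and 2.62 FPKM in WT 1, 2 and 3. The NS-DADm samples were close together, and WT 1 lay among them while WT 3 was the highest. The log2 fold change was -0.48 (SE 0.27, adjusted p = 0.378, edgeR), and with the atrial score as a covariate it was -0.71 (SE 0.24, adjusted p = 0.152). Neither fit called Hcn4. With the groups only, its log2 fold change was -0.12 without WT 3 (adjusted p = 0.825, edgeR) and -0.72 without WT 1 (adjusted p = 0.184).

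Hcn2 and Hcn4 together had a lower level in NS-DADm, at 4.17, 3.41 and 4.51 FPKM in NS-DADm 1, 2 and 3, against 11.5, 10.4 and 11.7 FPKM in WT 1, 2 and 3. Hcn2 made up 68.2 ± 2.35% of that sum in NS-DADm and 83.9 ± 6.09% in WT (SD, n = 3 each). The share of Hcn4 was 33.1%, 33.1% and 29.0% in NS-DADm 1, 2 and 3, against 10.2%, 15.7% and 22.3% in WT 1, 2 and 3. The groups did not overlap in either share, and no test was run on shares. Hcn3, a further HCN subunit, did not exceed 0.06 FPKM in any sample.

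**Figure D2:**
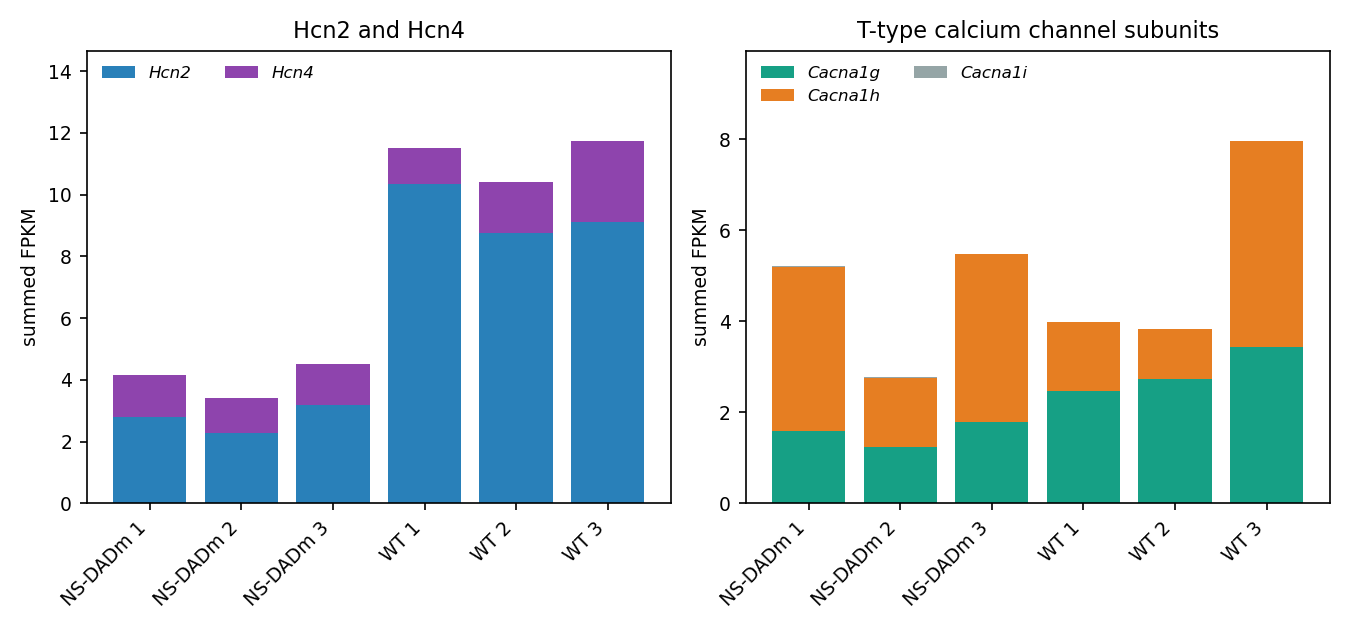
Summed FPKM of Hcn2 and Hcn4 (left) and of the T-type calcium channel subunits (right) in each sample, with colours for the genes. The Hcn2 and Hcn4 bars reach 3.41 to 4.51 FPKM in NS-DADm and 10.4 to 11.7 FPKM in WT, and the T-type bars reach 2.77 to 5.48 FPKM in NS-DADm and 3.84 to 7.95 FPKM in WT.

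RefSeq gives a promoter for Hcn2 and for Hcn4 on GRCm38.p6, and the 250 bases before each start are printed here because these are the HCN channel genes described here. They were read for AGGTCA, the hexamer bound by many nuclear receptors, whose corepressors are mutated in NS-DADm, and for AGGTGT, the hexamer bound by T-box factors such as TBX3. Both strands were searched, so TGACCT and ACACCT count as well, and no matches overlapped. The sequences lie at chr10:79716384-79716633 (+ strand) for Hcn2 and chr9:58822699-58822948 (+ strand) for Hcn4, with matches in capitals.
Hcn2: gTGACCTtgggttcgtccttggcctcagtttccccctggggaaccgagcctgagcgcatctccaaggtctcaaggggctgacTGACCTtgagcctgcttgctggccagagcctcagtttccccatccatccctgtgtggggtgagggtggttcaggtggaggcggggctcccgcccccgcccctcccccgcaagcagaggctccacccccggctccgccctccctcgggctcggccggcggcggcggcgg
Hcn4: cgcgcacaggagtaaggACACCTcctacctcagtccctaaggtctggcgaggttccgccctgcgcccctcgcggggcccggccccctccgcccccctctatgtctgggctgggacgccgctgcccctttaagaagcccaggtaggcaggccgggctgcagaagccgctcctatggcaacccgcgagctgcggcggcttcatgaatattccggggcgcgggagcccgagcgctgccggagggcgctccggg
The Hcn2 sequence held AGGTCA 2 times, both on the opposite strand, with first bases 249 and 168 bases before the start, and it held no AGGTGT. The Hcn4 sequence held AGGTGT once on the opposite strand, with its first base 233 bases before the start, and no AGGTCA. Of 32851 mouse promoters of the same length, 14.0% held AGGTCA at least 1 time, 1.36% at least 2 times, and 11.8% held AGGTGT. Promoters were also found for Cacna1d, Shox2 and Isl1, and they held neither hexamer. Cacna1g, Cacna1h, Tbx3 and Gjc1 had no entry. A match is a description of the letters and not a bound site.

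Among the calcium channels, Cacna1g was lower in NS-DADm, and Cacna1h was associated with the atrial score. Cacna1g (gene ID 12291) encodes a T-type channel that opens at negative voltages, and it is known to support sinoatrial and atrioventricular conduction in mice. Its level was 1.6, 1.24 and 1.79 FPKM in NS-DADm 1, 2 and 3, against 2.47, 2.74 and 3.44 FPKM in WT 1, 2 and 3. All NS-DADm samples were below all WT samples. Cacna1g averaged 1.54 ± 0.279 FPKM in NS-DADm and 2.88 ± 0.501 FPKM in WT (SD, n = 3 each), from 129 to 178 expected counts in NS-DADm and 217 to 313 in WT. The log2 fold change was -0.88 (SE 0.15, adjusted p = 0.0138, edgeR), and -1.04 with the atrial score as a covariate (SE 0.13, adjusted p = 0.00166). The call was lost without WT 2 (adjusted p = 0.0568), without NS-DADm 1 (0.0522), and in limma fits of log2(FPKM + 1) (0.0546) and of log2(FPKM + 0.1) (0.0584).

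Cacna1h (gene ID 58226) encodes the other T-type channel of the heart. Its level was 3.58, 1.52 and 3.68 FPKM in NS-DADm 1, 2 and 3, against 1.51, 1.10 and 4.51 FPKM in WT 1, 2 and 3. The groups overlapped fully, and the 3 high values were in the 3 samples with high atrial scores. Between groups, the log2 fold change was 0.31 (SE 0.46, adjusted p = 0.778, edgeR), and it turned to -0.27 with the score as a covariate (SE 0.12, adjusted p = 0.30). The coefficient of the score itself, with the groups as a term, was tested after the data were seen. Cacna1h gained 0.35 on the log2 scale for each unit of the score (SE 0.03, adjusted p = 4.14e-05, edgeR), in a test that called 0.998% of all genes. It was the only pacemaker gene of the 8 tested that passed, and its coefficient ran from 0.33 to 0.39 over the 8 alternatives, with adjusted p up to 0.0255. The scores were 8.004 to 8.71 in the 3 high samples and 2.25 to 5.22 in the others, with none between. Sln, Myl7 and Myl4 make up the score, and of the other 4 atrial markers Nppa, Bmp10 and Dkk3 passed the same test while Kcnj3 did not.

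As a share of the T-type sum, Cacna1g was 30.7%, 44.8% and 32.7% in NS-DADm 1, 2 and 3, against 62.1%, 71.4% and 43.3% in WT 1, 2 and 3. In each group the share was lower in the samples with high atrial scores, where Cacna1h was high. NS-DADm 2 stood above WT 3, so the groups overlapped. The summed level of the family was 4.49 ± 1.49 FPKM in NS-DADm and 5.26 ± 2.33 FPKM in WT (SD, n = 3 each), and Cacna1i did not exceed 0.03 FPKM.

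Cacna1d (gene ID 12289) encodes an L-type channel that opens at lower voltages than the main L-type channel of ventricular muscle. Its level was 0.65, 0.27 and 0.68 FPKM in NS-DADm 1, 2 and 3, against 0.31, 0.20 and 0.41 FPKM in WT 1, 2 and 3. The lowest sample of each group was the one with the lowest atrial score, and the groups overlapped. The log2 fold change was 0.82 (SE 0.35, adjusted p = 0.256, edgeR), or 0.37 with the score as a covariate (SE 0.27, adjusted p = 0.55). The coefficient of the score was 0.22 (SE 0.06, adjusted p = 0.212).

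**Figure D3:**
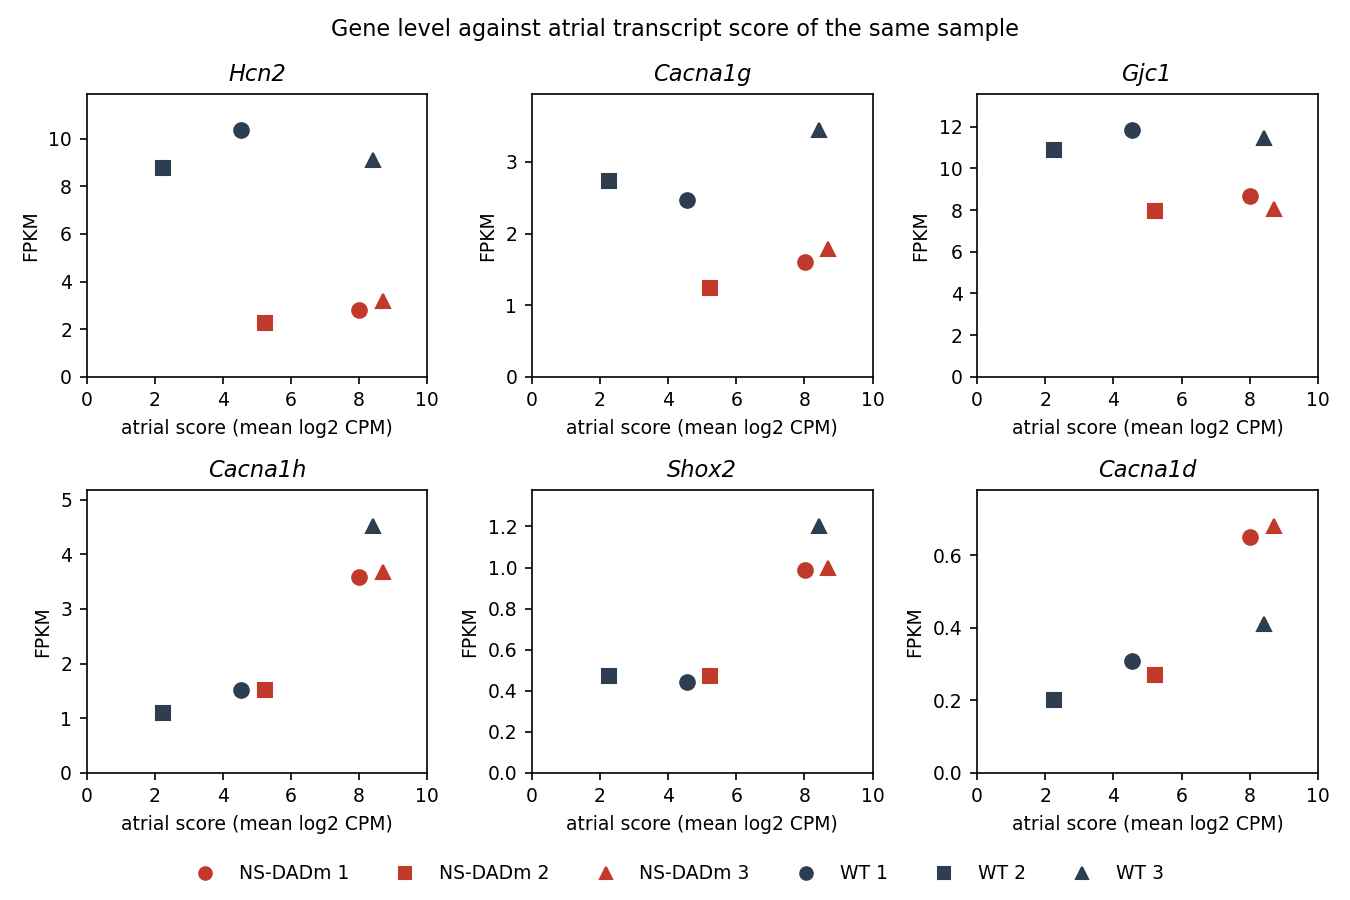
Level in FPKM of 6 of the genes against the atrial score of the same sample, the mean log2 CPM of Sln, Myl7 and Myl4, for NS-DADm and WT samples. Hcn2, Cacna1g and Gjc1 lie lower in all NS-DADm samples than in all WT samples, while Cacna1h and Shox2 are high in NS-DADm 1, NS-DADm 3 and WT 3.

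Gjc1 (gene ID 14615) encodes a connexin of low conductance that couples nodal cells and is also found in vascular muscle. Its level was 8.67, 7.95 and 8.06 FPKM in NS-DADm 1, 2 and 3, against 11.8, 10.9 and 11.4 FPKM in WT 1, 2 and 3. The groups did not overlap, and each was narrow. NS-DADm over WT, its log2 fold change was -0.44 (SE 0.08, adjusted p = 0.0228, edgeR), and -0.46 with the atrial score as a covariate (adjusted p = 0.0416). The call was lost with DESeq2's Wald test (adjusted p = 0.0509) and on leaving out WT 1 (0.0949), WT 2 (0.0775), NS-DADm 1 (0.053), NS-DADm 2 (0.0717) and NS-DADm 3 (0.0691) in turn, while the log2 fold change stayed between -0.48 and -0.42 over all alternatives.

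The transcription factors did not pass the test. Tbx3 (gene ID 21386), a T-box repressor that holds back working muscle genes in the conduction system, was the most abundant of them. Its level was 6.86, 6.11 and 3.94 FPKM in NS-DADm 1, 2 and 3, against 3.77, 4.16 and 4.77 FPKM in WT 1, 2 and 3. NS-DADm 1 and 2 were above all WT samples and NS-DADm 3 was within their range. Tbx3 had a log2 fold change of 0.43 (SE 0.18, adjusted p = 0.245, edgeR), and without NS-DADm 3 it was 0.64 and called (adjusted p = 0.023). With the score as a covariate the log2 fold change was 0.45 (SE 0.20, adjusted p = 0.289). Per unit of the atrial score its coefficient was -0.01 (adjusted p = 0.982).

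Shox2 (gene ID 20429), a homeobox gene required for the sinoatrial node, was at 0.99, 0.47 and 1.00 FPKM in NS-DADm 1, 2 and 3, against 0.44, 0.47 and 1.20 FPKM in WT 1, 2 and 3. The 3 high values were again in NS-DADm 1, NS-DADm 3 and WT 3. Shox2 had a log2 fold change of 0.11 (SE 0.47, adjusted p = 0.936, edgeR) and turned to -0.44 with the score as a covariate (SE 0.32, adjusted p = 0.547). The coefficient of the score was 0.30 (SE 0.07, adjusted p = 0.105), and it passed with the score of all 7 atrial markers (adjusted p = 0.0444). Shox2 had 12 to 33 expected counts in NS-DADm and 12 to 37 in WT, so only a large difference could be detected.

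Isl1 (gene ID 16392), a LIM-homeobox factor of cardiac progenitors and the sinoatrial node, was listed in 2 samples. It had 4, 0 and 5 expected counts in NS-DADm 1, 2 and 3, or 0.13, 0 and 0.17 FPKM, and 0 counts in each WT sample. Over a group, that is 9 counts of 37385157 in NS-DADm and 0 of 32157321 in WT. Against a floor of 3 counts over the WT group, the 9 NS-DADm counts gave a ratio of 2.58 after scaling to these totals. The ratio takes the 9 counts as exact, so it is not a lower limit on the fold change. It was 1.71 without NS-DADm 3, 3.92 without NS-DADm 2 and 2.14 without NS-DADm 1. Leaving out WT 1, WT 2 and WT 3 gave 1.72, 1.76 and 1.68. NS-DADm 2 was at 0 like every WT sample, so the groups overlapped and a rise across the NS-DADm group was not shown. Both NS-DADm samples with counts had high atrial scores, but WT 3, also with a high score, had none.

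**Figure D4:**
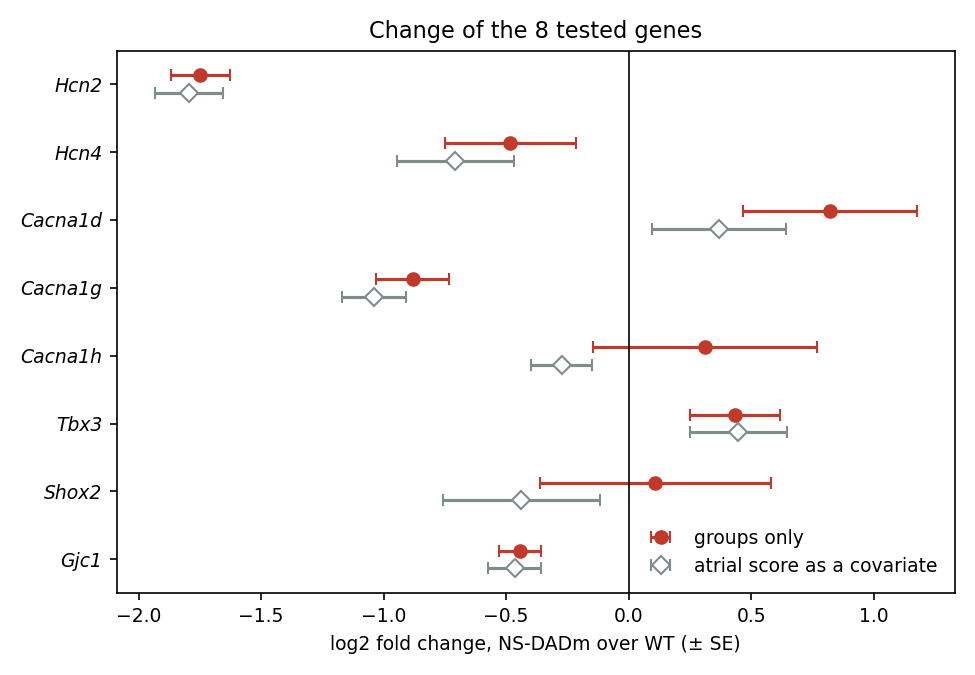
Log2 fold change of NS-DADm over WT with its standard error for the 8 tested genes, with the groups only (filled circles) and with the atrial score as a covariate (open diamonds). Hcn2, Cacna1g and Gjc1 lie below 0 in both fits, and Cacna1h and Shox2 are on opposite sides of 0 in the 2 fits.

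At the level of transcript models, 19 models of the 9 genes were listed and 13 were tested. One passed, the single model of Hcn2 (log2 fold change -1.75, SE 0.14, adjusted p = 0.0342, edgeR), where 0.0972% of 17498 tested transcripts were called. That call was lost without each sample in turn. The 4 models of Cacna1g and the 3 of Gjc1 were assigned unevenly within a group. A Gjc1 model had 8.05, 4.78 and 5.2 FPKM in NS-DADm 1, 2 and 3 and 10.9, 8.03 and 1.85 FPKM in WT 1, 2 and 3, while the gene as a whole varied little. Differences between models of these genes were therefore not resolved. RefSeq places other genes over the spans of Cacna1d, Cacna1g, Cacna1h, Tbx3 and Shox2. Whole gene spans were compared and not exons, and no use of strand is stated. Whether such overlapping genes share reads was therefore not tested. The gene over Cacna1g, the noncoding Gm51872, was not listed in any sample. Rsrc1, which overlaps Shox2, was at 5.63, 5.22 and 5.45 FPKM in NS-DADm 1, 2 and 3 and at 4.70, 5.22 and 5.79 FPKM in WT 1, 2 and 3. Dcp1a, which overlaps Cacna1d, was at 2.98, 3.72 and 3.55 FPKM in NS-DADm and 3.38, 3.63 and 3.87 FPKM in WT. Chdh, also over Cacna1d, did not exceed 0.23 FPKM, and Tpsg1, over Cacna1h, did not exceed 0.14 FPKM. The remaining overlapping genes were not listed in any sample. No gene of the RefSeq table overlaps Hcn2, Hcn4, Isl1 or Gjc1.

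Related genes were counted in 8 lists. Over all tested genes, 1.41% were called lower and 1.79% higher. Among HCN channel partners none of 4 tested passed (median log2 fold change 0.02). Of 12 voltage-gated calcium channel subunits 1 fell, Cacna2d1, an auxiliary subunit of L-type channels (log2 fold change -0.33, adjusted p = 0.034, edgeR), and the median was 0.16. Its level was 28.1, 31.6 and 29.3 FPKM in NS-DADm 1, 2 and 3 and 36.1, 38.8 and 38.9 FPKM in WT 1, 2 and 3, and the call was lost in 6 of 15 alternatives, the atrial covariate among them (adjusted p up to 0.147). Cacna1c, the main L-type pore of ventricular muscle, was not called (19.3, 20.8 and 23.6 FPKM in NS-DADm 1, 2 and 3; 22.3, 23.9 and 27.1 FPKM in WT 1, 2 and 3). Of 7 sinoatrial node enriched genes 1 fell, Smoc2, a matrix protein gene (-0.35, adjusted p = 0.0436), and this call was lost in 7 of 15 alternatives (up to 0.183). None of 18 nodal and conduction transcription factors passed (median -0.16, 5 positive and 13 negative), nor did any of 12 genes of the REST repressor and its cofactors (median -0.08).

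Kcne1, Gja1 and Adcy5 were the called genes of the remaining lists. Among 10 Purkinje and ventricular conduction genes Kcne1, a potassium channel subunit, fell. Its level was 0.71, 0.23 and 0.40 FPKM in NS-DADm 1, 2 and 3, against 2.53, 2.07 and 2.31 FPKM in WT 1, 2 and 3 (log2 fold change -2.35, adjusted p = 0.00444, edgeR). The groups were far apart. The median of that list was -0.14. Of 7 other connexins and partners Gja1, the main connexin of ventricular muscle, fell. Its level was 88.8, 81.6 and 95.8 FPKM in NS-DADm 1, 2 and 3, against 124, 140 and 112 FPKM in WT 1, 2 and 3 (-0.47, adjusted p = 0.0229, edgeR). It lost its call on leaving out WT 1, WT 2 and each of NS-DADm 1 and 2 (highest adjusted p = 0.0947). All 7 log2 fold changes in that list were negative (median -0.18). Of 17 genes of pacemaker calcium and cyclic AMP machinery Adcy5, an adenylyl cyclase that makes the cyclic AMP to which HCN channels respond, fell (-0.64, adjusted p = 0.00259, edgeR). Its level was 12.2, 11.99 and 12.7 FPKM in NS-DADm 1, 2 and 3, against 18.6, 18.0 and 21.8 FPKM in WT 1, 2 and 3, with no overlap. The calls of Kcne1 and Adcy5 held in all 15 alternatives, the atrial covariate among them, and with that covariate Gja1 was also called (adjusted p = 0.0403). The median of that list was -0.06. Among the most abundant genes of the 8 lists, these did not pass: Cav3, Mrvi1, Cacnb2, Igfbp5, Hopx, Nkx2-5, Irx3, Tjp1, Atp2a2, Pln, Hdac2 and Sin3b.

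With the atrial score as a covariate, 4 further genes of the 8 lists were called lower in NS-DADm that were not called without it. That fit called 1.37% of all tested genes lower. These were Cacna2d2, a calcium channel subunit (log2 fold change -1.12, adjusted p = 0.0342, edgeR), Gja5, a connexin of the atria and Purkinje fibres (-0.82, adjusted p = 0.0311), Rgs6, a regulator of G protein signalling (-0.93, adjusted p = 0.0171), and Kcnj5, a potassium channel subunit opened by muscarinic receptors (-0.49, adjusted p = 0.0485). Without the covariate their log2 fold changes were -0.32, -0.36, -0.74 and -0.40 in the same order, with adjusted p from 0.0647 to 0.872. Cacna2d2 was at 1.17, 0.22 and 1.12 FPKM in NS-DADm 1, 2 and 3 and 0.39, 0.23 and 2.5 FPKM in WT 1, 2 and 3. Gja5 was at 3.14, 1.48 and 2.69 FPKM against 2.84, 1.70 and 4.95 FPKM. For both the groups overlapped and WT 3, the only WT sample with a high score, was highest. The groups did not overlap for Rgs6 and Kcnj5. Group differences of the covariate fit were not read with a sample left out. Cacna2d1 and Smoc2 lost their calls in the covariate fit (adjusted p = 0.0561 and 0.0747).

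**Figure D5:**
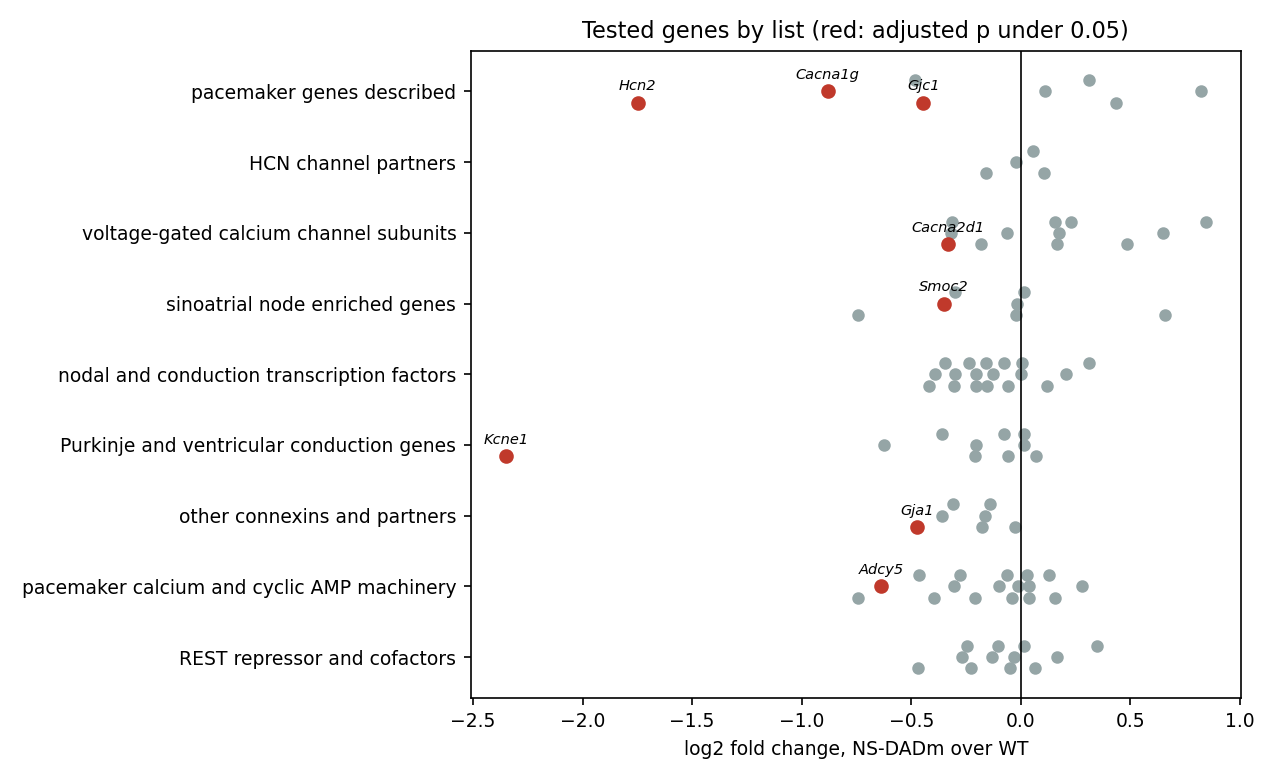
Log2 fold change of NS-DADm over WT for each tested gene of the pacemaker genes and of 8 related lists, in red where the adjusted p was under 0.05. Kcne1 and Hcn2 are the lowest points of all, at -2.35 and -1.75.

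Markers of other cell types were read beside these results, in the test that called 1.79% of all genes higher and 1.41% lower. Of 5 tested macrophage markers 3 rose in NS-DADm, C1qa, C1qb and Csf1r, and the sum of all 5 was 201, 176 and 192 FPKM in NS-DADm 1, 2 and 3, against 142, 133 and 136 FPKM in WT 1, 2 and 3. The call of Csf1r was lost in 4 of 15 alternatives, on leaving out either of WT 1 and 2 or of NS-DADm 1 and 2 (adjusted p up to 0.0961), and that of C1qb without WT 2 (0.0568), while C1qa kept its call in all 15. Of 4 tested neuron and Schwann cell markers 1 fell, Dbh, the enzyme of noradrenaline synthesis (log2 fold change -1.77, adjusted p = 0.047, edgeR), a call lost in 7 of 14 alternatives. The 6 markers of that list summed to 5.60, 3.28 and 5.49 FPKM in NS-DADm 1, 2 and 3 and to 6.27, 7.75 and 6.95 FPKM in WT 1, 2 and 3, and Th was listed at 0 in NS-DADm 2 and all WT samples. The 7 sinoatrial markers, 4 of which are genes described here, summed to 11.4, 8.94 and 8.29 FPKM in NS-DADm 1, 2 and 3 and to 6.65, 8.39 and 11.1 FPKM in WT 1, 2 and 3. Tbx3 was the largest part of this sum in every sample, at 3.94 to 6.86 FPKM in NS-DADm and 3.77 to 4.77 FPKM in WT. No marker of ventricular muscle, endothelium, fibroblasts, mural cells, adipocytes, epicardium or erythroid cells was called, except that the fibroblast gene Lum was called lower with the atrial covariate (adjusted p = 0.038). Erythroid markers summed to 3394 to 6680 FPKM in NS-DADm and 6708 to 7970 FPKM in WT. NS-DADm 1 (6680 FPKM) was thus just below WT 3 (6708 FPKM). Of the 5 erythroid markers 1, Hbb-bs, was fully separated between the groups, as were 23.4% of all tested genes. Adipocyte markers summed to 1.91 to 50.5 FPKM in NS-DADm and 1.11 to 14.7 FPKM in WT. The part of these cell types in the falls of Hcn2, Cacna1g and Gjc1 was not tested.

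The genes with the pattern most like each pacemaker gene over the 6 samples were chosen by the smallest root mean square difference in log2 CPM, each gene centred on its own mean, among 11129 genes. For Hcn2 these were Ndrg4 (0.20), Adra1d (0.21) and Bex1 (0.26). For Cacna1g they were Fam78a (0.11), Mapk10 (0.12) and Sox4 (0.13), and for Gjc1 Fgd1 (0.04), Enthd2 (0.05) and Carns1 (0.06). Cacna1h was nearest to Sbk2 (0.15), Gng2 (0.17) and Slit3 (0.19), and Tbx3 to Soat1 (0.07), Slc20a1 (0.09) and Ms4a6d (0.12). Hcn4 was nearest to Nr2f1 (0.14), Cacna1d to Slco2a1 (0.14) and Shox2 to Myl9 (0.21). The distance was small for Gjc1 and large for Shox2 and Hcn2, and it says nothing of shared control.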

How the data were processed

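RNA of 6 samples of mouse myocardium was sequenced, 3 NS-DADm and 3 WT. The authors deposited expected counts and FPKM per gene and per transcript, per the file headers. Expected counts are estimated reads per feature, and FPKM scales them by length and library size. Reads were aligned with HISAT, per the submitters' processing notes, with no version. Not given in the sources used here are the estimator, genome build and annotation. Only features with an FPKM of at least 0.01 were listed, so a gene not listed counted as 0.

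Expected counts were rounded, filtered with filterByExpr defaults, scaled by TMM and tested with edgeR 4.0.16 in R 4.3.3 on all 6 samples. The entry without a symbol, at most 0.000321% of counts, was left out. The score coefficient and the score of all markers as a covariate were added after the data were seen. So were the ratios for Isl1 with a sample left out. Alternatives used DESeq2 1.42.0 and limma 3.58.1. The edgeR tests were tested on simulated data, where false gene calls exceeded the nominal level and many small changes of genes were missed. For transcripts, many large changes were missed as well. The genes and lists were chosen with earlier results of these data known. The rule for named genes took all 9 pacemaker genes, the targeted genes, the called and most abundant genes of each list, and the 3 genes nearest in pattern. Hcn3, Cacna1i and the overlapping genes complete a family or a locus and were added outside that rule, and genes called only with the covariate were named after their values were seen. Another targeted corepressor and some genes of the lists are not reported here. Promoters came from RefSeq on GRCm38.p6, which need not be the authors' build.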

Additional observations from a re-analysis of the deposited data

How the results depend on the processing

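The main fit called 420 genes, and each alternative was counted anew over all the genes it tested. The count was 895 with a replicate block, and 272 and 267 with limma on log2(FPKM + 1) and log2(FPKM + 0.1). On leaving out each sample in turn it was 117 to 382. It was 117 without WT 2, 149 without WT 1, 181 without NS-DADm 1 and 273 without NS-DADm 2. The replicate block used the numbers of the labels, which state no pairing, so the samples were not treated as pairs. Deviations from the group means had correlations of -0.09, 0.32 and 0.41 between same-numbered NS-DADm and WT samples. Between differently numbered samples the correlations ran from -0.46 to 0.21. These values do not settle whether equal numbers mark pairs. With the block, 3 pacemaker genes were called. Transcripts called were 17, 2 with the block, and 3 to 7 on leaving out a sample. Genes associated with the atrial score were 131, and 45 to 135 on leaving out a sample, the lowest without WT 3. Of the pacemaker genes 3 were called, and 1 to 3 on leaving out a sample: only Hcn2 remained without WT 2 or without NS-DADm 1. The log2 fold change of Cacna1h turned to -0.27 with the atrial covariate, to -0.20 with that of all atrial markers, and ran from -0.018 to 1.17 on leaving out a sample. That of Shox2 turned to -0.44 and -0.41, and ran from -0.13 to 0.74. Per unit of score, the coefficient ran from -0.0156 to 0.19 for Hcn4, from -0.10 to 0.0355 for Tbx3 and from -0.00086 to 0.0263 for Gjc1 on leaving out a sample. The cause of these shifts was not tested. DESeq2 size factors and both other filters kept the same calls among the pacemaker genes. With 3 samples a group and few counts for Shox2, Isl1 and Cacna1d, small differences in them were not detectable.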
